A study of Homo sapiens with 2 samples.

Results

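The genes of 9 complement components and regulators, C3, C1R, C1S, CFB, CFI, SERPING1, CD46, CD55 and CD59, were compared between FaDu cells with and without extra GLUT4, out of 19775 genes on the arrays. The members were chosen by name: every probe set whose platform annotation names only 1 of these genes was taken, which gave 20 of the 54675 probe sets on the array. FaDu is an established line of pharyngeal squamous carcinoma cells. One population stably carried GLUT4, the insulin-regulated glucose transporter encoded by SLC2A4, and the other a control vector, and both had been transduced and kept under puromycin. Each population gave 1 array, so no difference below has a replicate check or a test, and each covers every way in which these populations differed. In a bulk sample, fewer expressing cells and less RNA per cell cannot be told apart.

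Complement is a system of blood and surface proteins that tags and lyses targets. In the classical pathway the serine proteases C1R and C1S cleave the early components. In the alternative pathway factor B (CFB) supplies the protease. All pathways meet at the cleavage of C3. Host cells restrain the cascade with soluble inhibitors, among them the C1 inhibitor SERPING1 and the C3b-cleaving protease factor I (CFI), and with membrane inhibitors. CD46 is a cofactor for factor I, CD55 speeds the decay of the C3-cleaving enzymes, and CD59 blocks the membrane attack complex. The liver makes most of the complement in plasma, epithelial cells make some locally, and interferons and inflammatory cytokines are known to induce C3, CFB, C1R, C1S and SERPING1. Carcinoma cells commonly carry the membrane inhibitors.

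None of the 20 probe sets differed by more than 1.5-fold, the cutoff of the study's methods, in either direction, beside 3.26% of all probe sets past it (2.04% higher and 1.22% lower). At 1 probe set per gene, 0 of 9 genes passed it, beside 3.37% of 19775 genes (1.84% higher and 1.54% lower). With GLUT4 the intensities of SERPING1, CFB, C1R, CFI and CD59 were higher and those of CD46, C3, C1S and CD55 lower on the brightest probe set of each gene. The median log2 difference over the 9 genes was 0.08, against -0.02 over all genes. A log2 difference here is always the GLUT4 array minus the vector array, and 1.5-fold is 0.58 on that scale. The one measure of technical error was the disagreement between probe sets of the same gene, which over 10523 genes gave an SD of 0.20 for the log2 difference of a single probe set and 0.29 for the gap of a pair. It does not cover variation between cultures. Of the 9 genes, 4 (CD46, SERPING1, CFB and C3) differed by more than that single-probe-set SD, which is 44.4%, beside 32.7% of all genes.

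**Figure D1:**
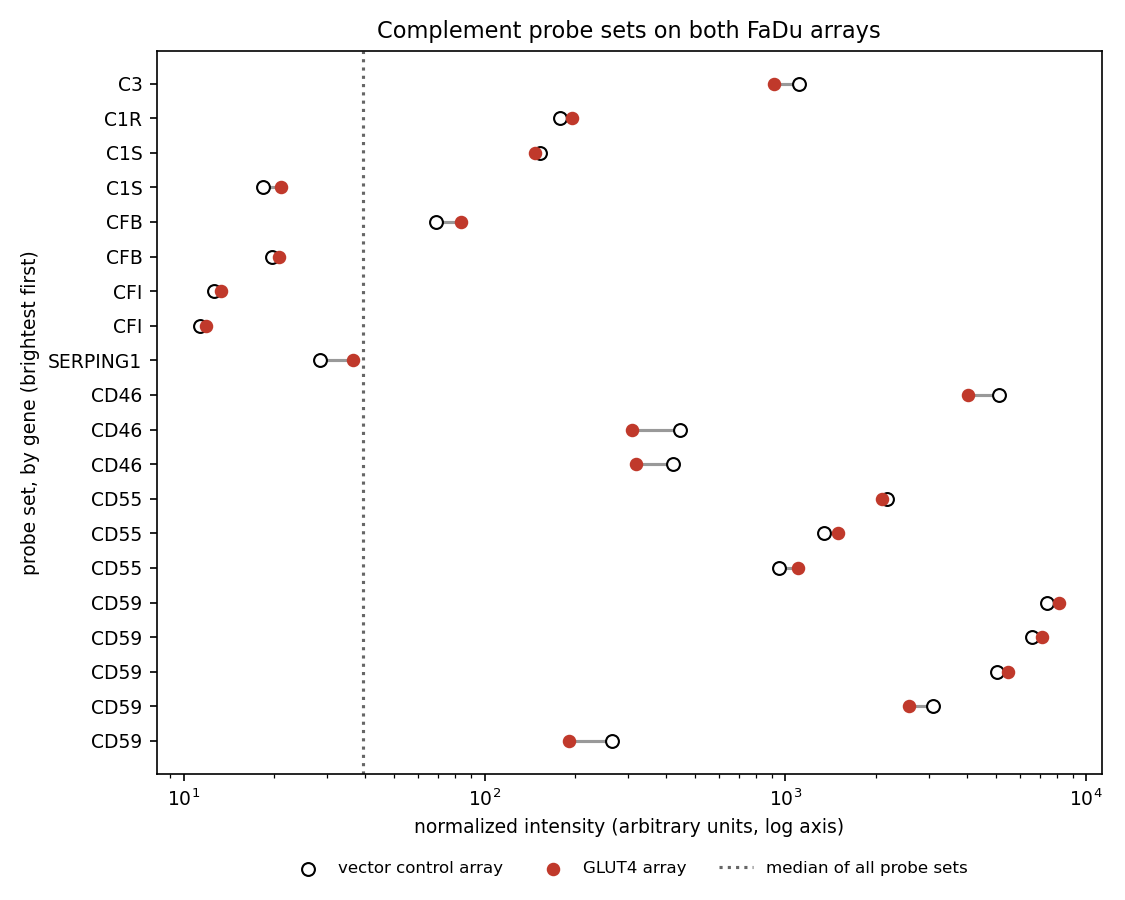
Normalized intensity (horizontal, log axis, arbitrary units) of the 20 probe sets of the 9 genes (vertical) on the vector control array (open circles) and the GLUT4 array (red circles), with the median of all probe sets dotted. The 3 CD46 probe sets lie to the left with GLUT4, while the CD59 probe sets go both ways.

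The arrays had medians of 39.7 (vector) and 39.1 (GLUT4), and the median log2 difference of all probe sets was -0.01. SLC2A4 itself read 28.3 and 32.6, a log2 difference of 0.20, with both values below the median of all probe sets. Whether its probe set detects the introduced sequence was not determined, and the reading is no check of which array is which. Of 8 squamous epithelial markers, 5 were analysed, and all 5 lay above the median on both arrays, with the basal keratin KRT5 at 11024 and 13093. They were not all steady, as KRT14, its basal partner keratin, read 1963 and 3985 (1.02, past 1.5-fold), and the adhesion molecule CDH1 read 3223 and 2224 (-0.54).

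CD46 had lower intensities with GLUT4 on every one of its 3 probe sets. Its brightest probe set had an intensity of 5136 with the vector and 4031 with GLUT4, 1.27-fold lower. The next, an x_at probe set, had 446 and 309, 1.44-fold lower, the widest difference among the 20 probe sets. The remaining one read 423 and 320, 1.32-fold lower. It and the brightest are s_at probe sets, so no CD46 probe set has a plain name ending, a limit described for CD59 below. All 3 thus lay on the lower side and none reached 1.5-fold, with log2 differences of -0.35, -0.53 and -0.40 and a mean of -0.43. Among 939 genes with 3 probe sets that were all above the median signal, 20.9% were lower on all 3, and 2.13% were lower on all 3 by at least 0.35, the smallest CD46 difference. Those shares are a description chosen after the CD46 values were seen. Probe sets of a gene read the same RNA sample, so their common direction is no replication between cultures.

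CD55 did not follow CD46. Its brightest probe set read 2168 and 2096, a log2 difference of -0.05. The next read 1347 and 1492 (0.15), and the dimmest 949 and 1100 (0.21). The brightest was thus slightly lower and the other two higher, and only the dimmest exceeded the SD of a single probe set. The highest CD46 difference, -0.35, lay below the lowest CD55 difference, -0.05. On the brightest probe sets the gap between both genes was 0.30, close to the 0.29 SD of the gap between probe sets of a single gene.

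CD59, the inhibitor of the membrane attack complex, had 5 probe sets that split by brightness. Its 3 brightest were higher with GLUT4. They read 7387 with the vector and 8095 with GLUT4, 6586 and 7146, and 5042 and 5509. Their log2 differences, 0.13, 0.12 and 0.13, were nearly alike. The 2 dimmer probe sets were lower. One read 3086 and 2579 (-0.26), and the other 265 and 191 (-0.48, or 1.39-fold). The direction of CD59 therefore turned with the probe set chosen, and the mean over all 5 was -0.07. The 2 lower probe sets are those with a plain name ending. The s and x endings of the others mark, in the naming of this array maker, probes shared by several transcripts or open to cross-hybridization. The span of 0.61 between its probe sets was wider than the median span of 0.40 among 111 genes with 5 probe sets all above the median signal, of which 15.3% had a wider one. Which transcripts each probe set detects was not determined.

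**Figure D2:**
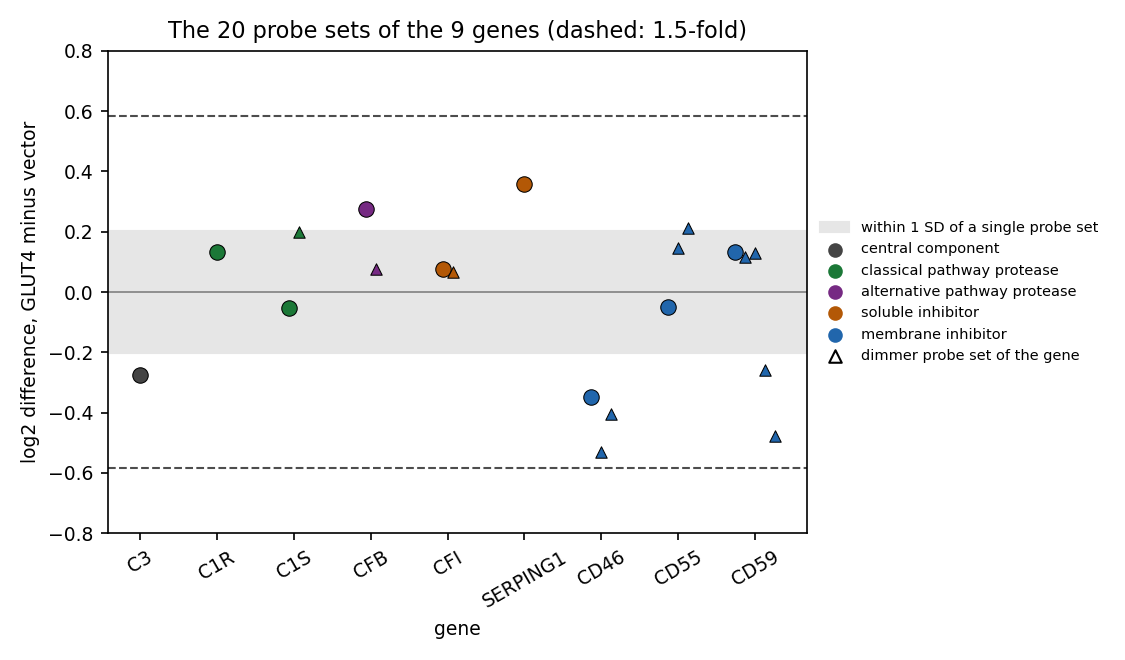
Log2 difference, GLUT4 minus vector (vertical), of each probe set of the 9 genes (horizontal), coloured by role, with circles for the brightest probe set of a gene, triangles for the others, a grey band of 1 SD of a single probe set (0.20) and dashed lines at 1.5-fold. All 20 lie between the dashed lines, CD46 is lower on all 3 of its probe sets and CD59 lies on both sides of 0.

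C3, the component on which all pathways converge, had 1 probe set, with an intensity of 1109 with the vector and 915 with GLUT4. This is 1.21-fold lower, a log2 difference of -0.28, and 10.9% of all genes had a lower difference. With a single probe set there is no second reading of C3 on these arrays.

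The classical pathway proteases C1R and C1S differed little. C1R had 1 probe set, at 178 and 196, a log2 difference of 0.13. C1S read 153 and 148 (-0.05) on its bright probe set and 18.4 and 21.1 (0.20) on one below the median signal, so its direction also turned with the probe set. C1S, C1R and the related protease gene C1RL follow one another on chromosome 12 in the RefSeq annotation. C1RL read 93.7 and 94.0. The 3 neighbours were thus at nearly the same levels on both arrays, each within the SD of a single probe set.

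For CFB, the protease of the alternative pathway, the brighter probe set gave 69.1 and 83.7, 1.21-fold higher with GLUT4 (log2 difference 0.28). Its other probe set lay below the median signal at 19.7 and 20.7 (0.08). Both were on the higher side, and 9.31% of all genes had a higher difference than the brighter one. C2, the counterpart of CFB in the classical pathway, which lies close to it on chromosome 6, was chosen for naming after its value was seen. It read 61.2 and 49.4 (-0.31) on its brighter probe set and 7.52 and 8.60 (0.19) on a dim one.

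The soluble inhibitors gave low signals. SERPING1 read 28.5 and 36.5 on its single probe set, 1.28-fold higher with GLUT4. Its log2 difference of 0.36 was the largest upward one among the 9 genes, and 5.71% of all genes had a higher one. Both readings were below the median signal of 39.3, and the difference came to 0.18 once 32 was added to all intensities to shrink differences between dim readings. CFI read 12.7 and 13.3 (0.08) on one probe set and 11.3 and 11.9 (0.07) on the other. No detection calls were used, so whether SERPING1 and CFI RNA were above background is not known.

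Among the 36 pairs of the 9 genes, the differences of 16 lay further apart than 0.29, the SD of the gap between probe sets of one gene, and those of 3 further than 0.58, which is 2 such SDs. These 3 pairs were SERPING1 and CD46 (gap 0.71), C3 and SERPING1 (0.63) and CFB and CD46 (0.63). Each of these pairs holds SERPING1 or CFB. With 32 added to all intensities, SERPING1 and CFB were at 0.18 and 0.19, and C3 and CD46 at -0.27 and -0.35. These gaps were thus smaller on that scale. No share over pairs of all genes was computed, so the counts do not show whether the 9 genes differ more than others. With 1 array per group, the gaps are a description.

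Promoter windows are shown for 3 genes, CFB because its window held letters of interferon-response motifs, and CD46 and CD55 because these related membrane inhibitors lie in the same region of chromosome 1 and read differently here. The sequences are those of RefSeq on GRCh38.p14, from 250 bases before to 50 after an annotated transcript start, 5′ to 3′ on the gene's strand. Windows were found for 6 of the 9 genes (11 windows), and C3, C1S and SERPING1 had none. The CFB window is chr6:31945845-31946144 (plus strand), the CD46 window chr1:207751788-207752087 (plus strand) and the CD55 window chr1:207321428-207321727 (plus strand). Capitals mark the matched motifs.
CFB: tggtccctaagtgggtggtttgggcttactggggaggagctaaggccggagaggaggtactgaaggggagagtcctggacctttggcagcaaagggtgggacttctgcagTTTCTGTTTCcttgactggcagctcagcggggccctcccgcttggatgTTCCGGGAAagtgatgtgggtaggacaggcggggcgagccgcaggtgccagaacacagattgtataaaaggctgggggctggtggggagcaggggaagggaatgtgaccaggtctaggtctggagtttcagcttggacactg
CD46: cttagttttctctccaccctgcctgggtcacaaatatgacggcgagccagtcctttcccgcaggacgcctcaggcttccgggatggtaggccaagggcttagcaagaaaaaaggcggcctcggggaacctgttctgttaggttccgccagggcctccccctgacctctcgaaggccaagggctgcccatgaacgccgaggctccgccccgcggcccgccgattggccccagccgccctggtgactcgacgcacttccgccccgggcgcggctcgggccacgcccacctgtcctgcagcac
CD55: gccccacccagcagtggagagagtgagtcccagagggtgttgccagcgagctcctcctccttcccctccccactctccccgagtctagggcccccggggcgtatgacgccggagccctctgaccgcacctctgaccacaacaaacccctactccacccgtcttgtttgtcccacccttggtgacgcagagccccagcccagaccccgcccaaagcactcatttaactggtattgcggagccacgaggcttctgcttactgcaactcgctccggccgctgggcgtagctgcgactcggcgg

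The motifs were searched on both strands as GAS, the STAT site (TTCNNNGAA), ISRE, the interferon-stimulated response element (GAAA, any 2 bases, GAAA), an NF-kappaB site (GGG, any 2 bases, TTTCC) and a C/EBP site (TTNNGNAA). In the CFB window the ISRE letters lay at -140 to -131 from the start and the GAS letters at -92 to -84, without overlap. Of all 35116 windows, 7.66% held GAS, 3.57% ISRE, 1.91% NF-kappaB and 36.8% C/EBP letters. Of the 11 windows of the 6 genes, 4 held GAS letters (in CFB, C1R and CD59), 1 ISRE letters (CFB), 4 C/EBP letters (in C1R, CFI and CD59) and 0 the NF-kappaB letters. The GAS letters of CD59 are the same bases in overlapping windows. The CD46 and CD55 windows held none of these letters. A match describes the sequence and is neither a binding site nor a cause.

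Of the factors known to act at complement promoters, 6 were analysed, and 0 of these passed 1.5-fold on the brightest probe set. CEBPB, which binds C/EBP sites in acute phase genes, read 7121 and 5292, 1.35-fold lower. Its relative CEBPD read 2259 and 2648 (0.23) on its bright probe set and 79.7 and 141 (0.82) on a dimmer one. STAT3, the transducer of interleukin-6 signals, read 1874 and 1509 (-0.31), with its other probe sets between -0.22 and 0.32. The NF-kappaB subunits NFKB1 and RELA were at 0.05 and 0.15. The interferon-regulated factor IRF1 was at -0.14, and at -0.78 on its dimmer probe set. Past 1.5-fold were thus only dimmer probe sets of CEBPD, upward, and of IRF1, downward.

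No gene of the rest of the pathway passed the cutoff on its brightest probe set. Of 46 further complement genes, 39 were analysed, and 0 of these were past 1.5-fold, higher or lower. Their median log2 difference was -0.13, beside -0.02 over all genes. Of the 39, 28 lay below 0 and 11 above, beside 10322 and 9452 of all 19775 genes. Most were dim: 26 lay at or below the median signal, where their median was -0.15 and that of all genes -0.05. The 13 above it had a median of -0.09, with 8 below 0. All 12939 genes above it had a median of -0.0007, with 6490 below 0. The brightest were C1QBP, a mitochondrial protein that also binds C1q, at 8779 and 8937 (0.03), and thrombomodulin, THBD, an anticoagulant receptor, at 1130 and 1011 (-0.16). The lectin pathway proteases MASP1 and MASP2 read 65.1 and 61.3, and 64.3 and 60.4. ITGB2, the beta chain of complement receptors on leukocytes, read 75.0 and 56.0 (-0.42) on its brightest probe set. A further ITGB2 probe set at 68.9 and 28.5 (-1.27) was the only one of the 67 probe sets of these genes past 1.5-fold, and the remaining one read 51.2 and 60.0 (0.23). At 1 probe set per gene, the lowest difference was that of CFHR4 at -0.51 (25.4 to 17.9) and the highest that of C1QB at 0.23 (40.3 to 47.4). Of the genes from the same chromosome 1 family as CD46 and CD55, CR1 was at 0.03, CR2 at -0.16, C4BPB at -0.20, CFHR2 at -0.39 (35.4 to 27.0) and CFHR4 at the value above, and C4BPA read 48.7 on both arrays. C1QB and these family members were named after their values were seen.

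**Figure D3:**
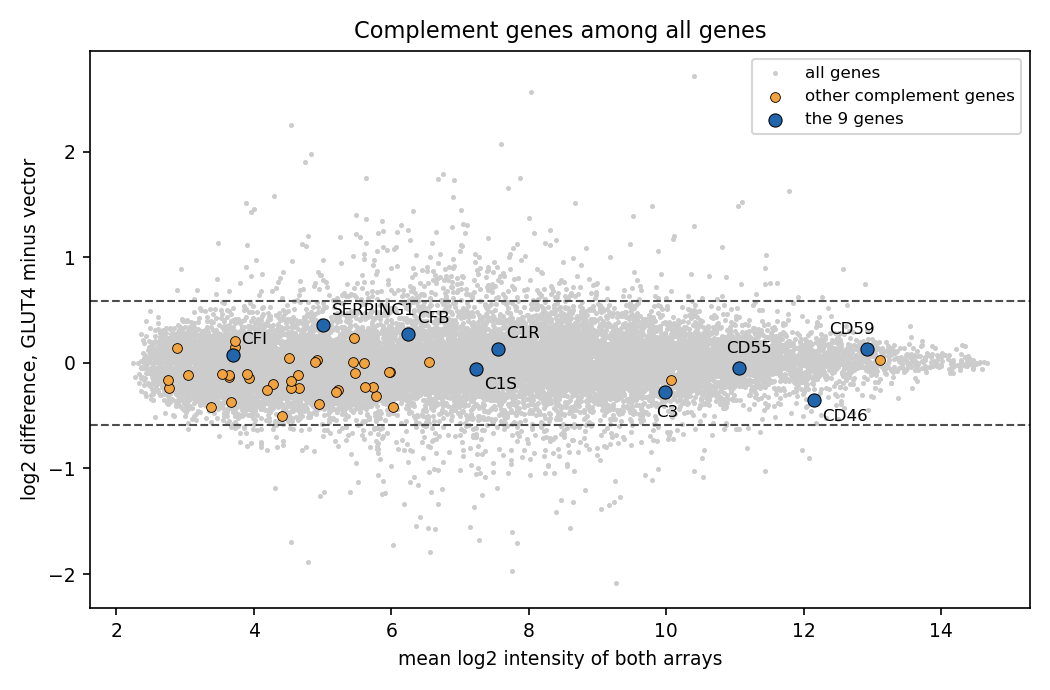
Log2 difference, GLUT4 minus vector (vertical), against mean log2 intensity of both arrays (horizontal) for all genes (grey), the 39 further complement genes (orange) and the 9 genes (blue, named), each at its brightest probe set. The 9 genes spread from CFI, with 13.4% of all genes dimmer, to CD59, with 98.7% dimmer. They and the orange points lie between the dashed lines at 1.5-fold.

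Markers of other cells that make complement were measured as well. For leukocytes and macrophages, 7 of 8 listed genes were analysed, their intensities summed to 429 with the vector and 306 with GLUT4, and 3 lay above the median on both, while the pan-leukocyte marker PTPRC was at 8.30 and 8.14. The monocyte marker CD14, at 251 and 143 (-0.81), was the 1 leukocyte marker past 1.5-fold. For fibroblasts, 8 of 8 were analysed and the sum was 918 and 1537. The proteoglycans DCN (482 to 1050), the largest part of that sum, and LUM (38.5 to 79.9) were more than 1.5-fold higher. The fibrillar collagen gene COL3A1 was at 15.2 and 17.4, and COL1A1 at 224 and 226. PDGFRA (17.9 to 15.3) and THY1 (66.3 to 63.4) were lower. Of the 8 fibroblast markers, 6 lay above 0 and 2 below. The 5 endothelial markers summed to 232 and 145, with PECAM1, the 1 endothelial marker past 1.5-fold, from 141 to 48.2. The receptor KDR was at 6.32 and 6.84. VWF (41.7 to 47.5) and TEK (24.1 to 25.8) were also higher, and CDH5 (19.1 to 17.0) was lower. Of the 5 endothelial markers, 3 thus lay above 0 and 2 below. The 5 hepatocyte markers summed to 1318 and 1221, almost all of it from the protease inhibitor SERPINA1, with ALB at 11.6 and 9.36, and the fibrinogen chain gene FGB was past 1.5-fold in the other direction, at 20.5 and 33.4 (0.70). The part of these markers in the complement values was not tested.

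**Figure D4:**
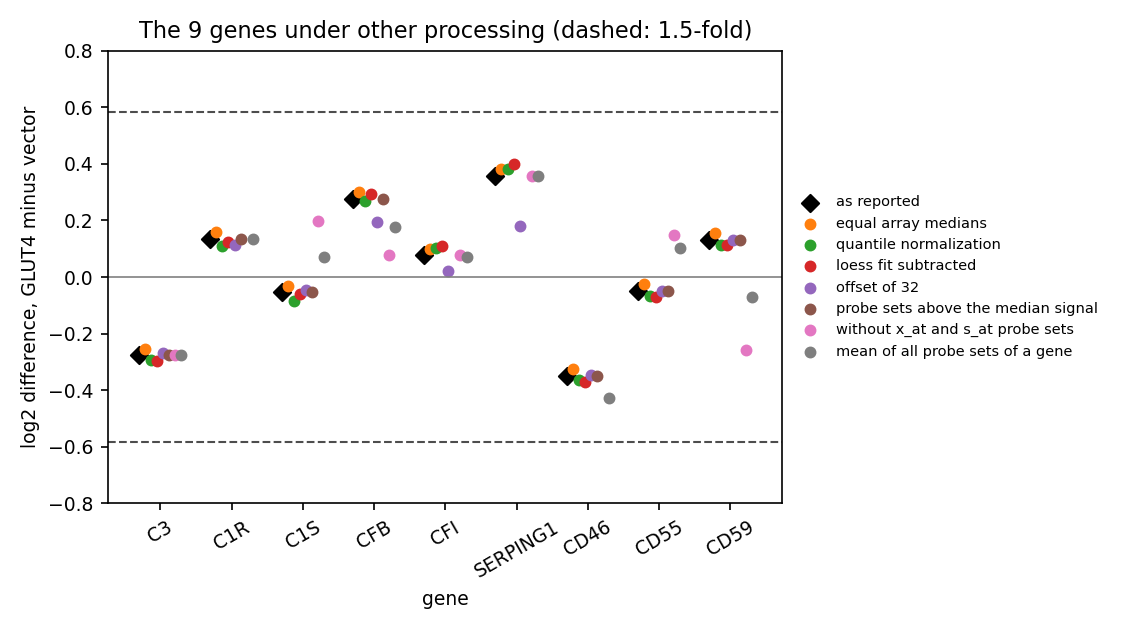
Log2 difference, GLUT4 minus vector (vertical), of each of the 9 genes (horizontal) as reported (black diamonds) and under 7 other ways of processing (coloured circles), with dashed lines at 1.5-fold. No point passes a dashed line, and C1S, CD55 and CD59 cross 0 when other probe sets are used. A gene that a setting left out has no circle for that setting.

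Under each alternative processing tried, none of the 9 genes that it kept passed 1.5-fold. The filter at the median signal kept 7, without SERPING1 and CFI. Leaving out the s_at and x_at probe sets also kept 7, without C1R and CD46. C3 stayed between -0.30 and -0.25 and CFB between 0.08 and 0.30. In the settings that kept them, CD46 stayed between -0.43 and -0.33 and SERPING1 between 0.18 and 0.40. C1S, CD55 and CD59 changed sign when the probe sets named s_at or x_at were left out, or when a gene was taken as the average of its probe sets.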

How the data were processed

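FaDu cells with stable GLUT4 or control vector gave 1 Affymetrix Human Genome U133 Plus array each. Per the methods, the authors labelled RNA from the 3′ end and normalized with GeneSpring. The submitters' notes also list MAS5, with no version, and the sources used here do not give their order. The deposited values are linear intensities that were already on a common scale, with a largest gap of 0.15 between sorted log2 values. There were no detection calls among the values used.

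Values under 1 were raised to 1, logged to base 2, and subtracted (GLUT4 minus vector). Among the 54675 probe sets, 41097 had 1 annotated gene. The 1801 with several genes and the 11777 with none here named no gene. Symbols were updated through RefSeq gene identifiers (GRCh38.p14). The probe set with the highest mean log2 intensity stood for its gene. All members were named, and of the further complement genes those past 1.5-fold and the 6 brightest, with a few more chosen after their values were seen (C2, C1QB and the genes related to CD46 and CD55). The members and lists were chosen with earlier results of these data known. The procedure was tested on simulated data. The number of arrays limits the precision. Alternatives were equal medians, quantile normalization, loess (fraction 0.3), 32 added to each value, only probe sets above the median, no s_at or x_at probe sets, averaged probe sets and a 2-fold cutoff. Software was matplotlib 3.10.9, statsmodels 0.14.6, scipy 1.17.1, pandas 2.3.3 and numpy 2.4.6 under Python 3.11.15.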

Additional observations from a re-analysis of the deposited data

How the results depend on the processing

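Counts of the 9 genes, of their probe sets and of the further complement genes past the cutoff stayed at 0 in both directions under every alternative that applied to them. The median over the 9 genes lay between -0.05 and 0.11, with the negative value when SERPING1 and CFI fell to the filter at the median signal. Leaving out s_at and x_at probe sets removed C1R and CD46, turned CD59 to -0.26 and C1S to 0.20, and moved CEBPD to 0.82. Averaging all probe sets moved CEBPD to 0.53, IRF1 to -0.46 and STAT3 to -0.11. Over all genes, 363 were more than 1.5-fold higher and 304 lower. These counts were 205 and 168 with the offset of 32 and 83 and 62 past 2-fold, and 186 were lower with averaged probe sets. No paired analysis was possible because each group had 1 array, and for the same reason no array could be left out.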
